A study of Mus musculus with 3 samples.

Results

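A set of 248 protein-coding genes carried 10 or more listed 5-methylcytosine (m5C) sites each in the mouse metaphase II (MII) oocyte, out of 6736 genes with at least 1 listed site there and 8353 over all 3 stages of the series. The genes were chosen by the number of their sites in the MII oocyte list, so that number and every measure taken from that list, calls between lists included, are given as descriptions and support nothing. They made up 3.68% of the genes of the MII oocyte list and held 3135 of its 20694 sites (15.1%). The same genes held 2284 of the 15910 sites listed in the germinal vesicle (GV) oocyte (14.4%) and 2717 of the 24996 sites listed in the 1-cell embryo (10.9%). Over the 3 lists their distinct sites numbered 4939 of 40298.

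m5C is placed on messenger RNA mainly by NSUN2, which favours a cytosine followed by a run of G at the foot of a stem-loop, and by NSUN6, which favours a CUCCA-like sequence in a loop. A fully grown GV oocyte and a matured MII oocyte make little or no RNA and live on stored maternal transcripts, most of which are later cleared from the embryo as its own genome is switched on. In bisulfite sequencing, unmethylated C is converted and read as T while m5C is still read as C, and the m5C level of a site is the share of its reads that stayed unconverted.

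All samples were from wild-type mice, with C57BL/6J females of 7 to 8 weeks as the source. The GV oocytes were taken from minced ovaries 48 h after the mice had received 10 IU of PMSG (pregnant mare serum gonadotrophin). For the MII oocytes, females primed with 10 IU of PMSG received 5 IU of human chorionic gonadotrophin (hCG), and the oocytes were taken from the oviduct 12 h later. The 1-cell embryos came from females mated with C57BL/6J males after 5 IU of PMSG and 5 IU of hCG, flushed out 24 h after the second hormone. These doses and ages are those of the labels. In its methods the study names a wider range of age for the oocyte donors and a higher hCG dose for the MII oocytes, and states that the females of the 1-cell embryos were induced in the same way as those, so whether doses and ages differed between stages is not known. The labels name polyadenylated RNA and the methods name RNA depleted of ribosomal RNA, and the labels describe the conversion conditions of the oocyte and embryo libraries in different words. Each stage was 1 library made from pooled oocytes or embryos, so stage and library cannot be told apart, and a test on reads compares a pair of libraries and not the stages. Markers of the oocyte had sites in each list (9, 11 and 13 of 14 marker genes at the GV, MII and 1-cell stage), with 66745, 67404 and 30856 reads at those sites. Of 14 markers of cumulus and granulosa cells, 0, 2 and 1 had a site, with 0, 145 and 48 reads. Those with a site were Amh and Cyp19a1 in the MII oocyte and Star in the embryo, and Foxl2, Fshr, Inhba and Has2 were among those with none.

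The sites of the 248 genes were covered by 602705 (GV), 720605 (MII) and 228189 (1-cell) reads, with a median of 161, 133 and 55 reads per site. Over all listed sites the medians were 121, 107 and 58 reads, so the chosen genes were more deeply covered than the rest in the oocytes but not in the embryo. A site was listed by the authors only with at least 20 reads, a level of at least 10% and 5 unconverted reads, and below 30 reads no site of these genes had a level under 17.2%. Such thinly covered sites made up 1.80%, 3.41% and 14.9% of their sites at the 3 stages. A site that is missing from a list has no level here, since it may be unmethylated, under these limits or not covered. Reads carry no molecular identifiers, so every interval given covers counting error only.

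The highest sites of the genes with most sites show the letters at which the modification was read. For each of the 10 genes with most MII sites, the site with the highest MII level at 100 or more reads is printed with 10 nt on each side, as mRNA and 5′ to 3′, with the site itself in capitals. The sequences were read from the mouse genome build GRCm38.
Lama5: ucugugacgcCaaggacccau
Mn1: ggugcuuuucCgaggcucuuu
Kmt2b: gugccgaauuCuagaguaucg
Cep170b: cuucccacagCgggccaacug
Gse1: ggaacugcggCgggagagaga
Caskin2: gggucgugaaCaggaccuuau
Kmt2d: gcggaggaccCuaggccaagc
Wdfy3: cgggccggagCcagcagauug
Wnk2: cacgcucaacCagcugaagca
Zfhx3: ggagaagcacCcggagccagg
All of these sites were of Type I, the class that the study assigns to NSUN2, and had no CUCNA sequence. Across the MII sites of the 248 genes the 4 bases after the site held 2.27 G on average, against 2.21 over all listed sites.

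In Lama5, which encodes the α5 chain of laminin, a basement membrane protein, this site lay in the coding sequence of exon 6 of 79, at position 180206748 of chromosome 2 on the minus strand. Its level was 76.5% of 166 reads in the GV oocyte (95% Wilson interval 69.5 to 82.3%) and 79.7% of 148 reads in the MII oocyte (72.5 to 85.4%), and it was not listed in the embryo. In Mn1, a transcriptional regulator, the site at position 111420152 of chromosome 5 (plus strand, coding sequence of exon 1) had 72.9%, 80.7% and 78.7% at the GV, MII and 1-cell stage. The 3 levels of this site had overlapping intervals.

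In Kmt2b, a histone H3 lysine 4 methyltransferase, the site at position 30576714 of chromosome 7 (minus strand, exon 26 of 37) had 73.4% in the GV oocyte and 74.0% in the MII oocyte and was not listed in the embryo. The highest site of its relative Kmt2d was in the 3′ UTR, at position 98834343 of chromosome 15 (minus strand), with 77.6% and then 88.6% in the oocytes and no row in the embryo. Wnk2, a kinase that regulates ion transport, had its site at position 49042684 of chromosome 13 (minus strand) at 63.6%, 76.8% and 81.2%. Zfhx3, a large homeodomain and zinc finger transcription factor, had its site at position 108794333 of chromosome 8 (plus strand) at 48.4%, 66.9% and 93.8%. Between the GV oocyte and the 1-cell embryo the Zfhx3 site was higher by 45.4 percentage points (Fisher's exact test, two-sided, Benjamini-Hochberg adjusted p = 1.09e-09).

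The other members of the 10 differed more in coverage in the embryo. The site of Cep170b, a centrosomal protein (position 112744841 of chromosome 12, plus strand), was at 66.1% and 73.1% in the oocytes and at 100% of only 25 reads in the embryo. The site of Caskin2, a scaffold protein (position 115811968 of chromosome 11, minus strand), was at 61.4%, 62.6% and then 100% of 29 reads. In Gse1, a partner of the CoREST histone demethylase complex, the site at position 120568186 of chromosome 8 (plus strand) had 45.9%, 51.8% and 65.9%. In Wdfy3, an adaptor for selective autophagy, the highest site at this coverage (position 101848413 of chromosome 5, minus strand) had only 18.7% and 26.9% in the oocytes and 55% of 20 reads in the embryo.

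The threshold of 10 sites cut through a continuous range. There were 71 genes with exactly 10 MII sites, which had a median of 8 GV sites (3 to 12) and 9 embryo sites (0 to 23), a median MII level of 19.4% and a median MII coverage of 139.5 reads. Just outside it, 95 genes had 9 MII sites, with a median of 7 GV sites (2 to 11) and 8 embryo sites (0 to 26), a level of 19.6% and a coverage of 121 reads. Only 45 genes had 15 or more MII sites and 14 had 20 or more.

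What the genes shared, beyond the count that chose them, was size and base composition. Their representative transcripts had a median length of 6087.5 nt, against 3267 nt for all genes of the MII list and 2539 nt for all annotated protein-coding genes. The coding sequence was 3882 nt against 1644 nt, the number of exons 22 against 11, and the GC content 55.8% against 51.2%. A transcript of the set held a median of 1636 C, against 813. Per 1000 C the set had 7.55 MII sites and all listed genes had 2.96. Of the 674 listed genes with the most C, 119 belonged to the set, and among these genes the members had a higher GC content than the others (54.1% against 49.4%) and a higher MII coverage (136.5 against 79 reads). Whether coverage or GC content accounts for their site number was not tested.

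Not every member was long. Hmga1, which encodes a small chromatin protein, reached 10 MII sites with 186 C in its representative transcript (53.8 sites per 1000 C), and Ino80e, a subunit of a chromatin remodeller, had 46.6 per 1000 C; both were named after their values were seen, and both have sites on other transcript forms, which raises these densities. At the other end, the cytoskeletal linker Dst had a coding sequence of 23151 nt. By chromosome, the share of listed genes that belonged to the set was highest on chromosomes 5 (35 of 514 genes, 6.81%), 11 (31 of 542, 5.72%) and 17 (5.40%). Chromosome 18 (1 of 171) had the lowest share, and chromosomes 3 (3 of 281) and 13 (3 of 225) were also low. Scaffolds are left out of this ranking.

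By function, the set is described here by counts beside the 3.68% of all listed genes that belonged to it. The groups are patterns of gene symbols and were written with earlier results of these data known. Laminins, matrix and adhesion proteins contributed 12 of 70 listed genes (17.1%), GTPase regulators and scaffolds 26 of 206 (12.6%), chromatin proteins and transcription cofactors 31 of 283 (11%) and cytoskeleton, motor and centrosome proteins 21 of 218 (9.63%). Kinases and receptors contributed 16 of 302 (5.30%) and vesicle traffic genes 10 of 184 (5.4%). Zinc finger genes contributed 6 of 175 (3.43%), ubiquitin genes 10 of 294 (3.40%) and transporters and channels 8 of 293 (2.73%). RNA-binding and translation proteins contributed 11 of 376 (2.93%), and genes in no group 91 of 4152 (2.19%). Oocyte and maternal-effect genes contributed 1 of 38 (2.63%), which was Tet3, the dioxygenase that oxidises 5-methylcytosine of DNA in the paternal genome of the zygote. The median coding length was 7948.5 nt in the matrix and adhesion group, 6807 nt in the cytoskeleton group and 3093 nt in genes of no group, so group and length moved together, and the part of length was not tested.

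Within the transcripts, 75%, 75.2% and 79.6% of the set's sites lay in the coding sequence at the GV, MII and 1-cell stage, against 68.1%, 68.6% and 73.3% of all listed sites. The 5′ UTR held 8.14%, 8.13% and 7.99% (11.2%, 11.3% and 10.3% of all sites), and the 3′ UTR held 16.5%, 16.1% and 12.2% (18.7%, 18.1% and 14.6%). All MII sites of 53 genes were in the coding sequence, while 18 genes had most of theirs in the 3′ UTR and 5 in the 5′ UTR. Efnb2, the ligand ephrin-B2, had 5 of 10 MII sites in the 5′ UTR, and Ptpn11, the phosphatase SHP2, had 10 of 15 in the 3′ UTR. Sites with the Type II sequence CUCNA, the class of NSUN6, made up 5.69%, 4.47% and 3.02% of the set's sites (130, 140 and 82 sites), against 5.89%, 5.01% and 3.44% of all sites, and 106 of the 248 genes had at least 1 in the MII oocyte. Type II sites of the set had a median MII level of 24.7% and Type I sites one of 19.2%, against 21.95% and 19.7% over all MII sites. This difference between classes was not tested.

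The sites of a gene were spread over the transcript and not packed in 1 place. In the MII oocyte a gene of the set had sites in a median of 7 exons, against 2 for all listed genes, and Lama5 had them in 25. The median number of MII sites was 11 in the set and 2 in all listed genes. The contrast in exons is therefore in part set by the rule that chose the genes and is not read as a result. Neighbouring sites of a gene were a median of 249 nt apart in the transcript, and 5.94% of neighbours were within 10 nt, against 5.60% over all listed genes. Pairs of directly adjacent C numbered 67, 92 and 81 at the 3 stages. Neighbours within 10 nt differed in MII level by a median of 13.4 percentage points and neighbours more than 100 nt apart by 11.6 points in the MII oocyte. The order was the same in the GV oocyte (14.9 and 10.4 points) and the reverse in the embryo (12.5 and 15.1 points). In folds of 50 nt on each side predicted with RNAfold, the site was paired at 57.6% of the set's MII sites (Wilson interval 55.8 to 59.3%) and at 58.7% of the MII sites of other genes. Type II sites of the set were paired at 33.6% and Type I sites at 58.7%.

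The densest coding stretches are printed because they show how unlike the levels of neighbours can be. They are the stretches of up to 100 nt with most MII sites, written as mRNA with every listed MII site in capitals. Hsf1, the heat shock transcription factor, and Fbxo10, a ubiquitin ligase subunit, were named after their values were seen, and Hip1r, a clathrin and actin adaptor, holds a site described further on.
Hsf1: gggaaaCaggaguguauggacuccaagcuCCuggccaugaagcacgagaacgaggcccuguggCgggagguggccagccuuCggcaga
Fbxo10: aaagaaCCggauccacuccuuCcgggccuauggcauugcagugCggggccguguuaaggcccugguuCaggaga
Hip1r: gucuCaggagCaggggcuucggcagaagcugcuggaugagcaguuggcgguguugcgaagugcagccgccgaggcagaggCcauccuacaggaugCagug
The Hsf1 stretch is 88 nt over exons 4 and 5 (chr15:76496923-76497656, plus strand) and has 5 sites among 22 C, with MII levels from 27.6% to 78.7% at 399 to 434 reads. All 5 were listed at every stage, with a range from 21.6% to 80.8% in the GV oocyte and from 15.8% to 87.9% in the embryo. The Fbxo10 stretch is 74 nt of exon 10 (chr4:45040635-45040696, minus strand), with 5 sites from 13.2% to 38.8%, of which 3 were listed in the GV oocyte and 4 in the embryo. In Hip1r, 100 nt of exon 19 (chr5:123998792-123998883, plus strand) held 4 sites from 16.0% to 86.6%. Coordinates run from the first to the last site of each stretch.

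**Figure D1:**
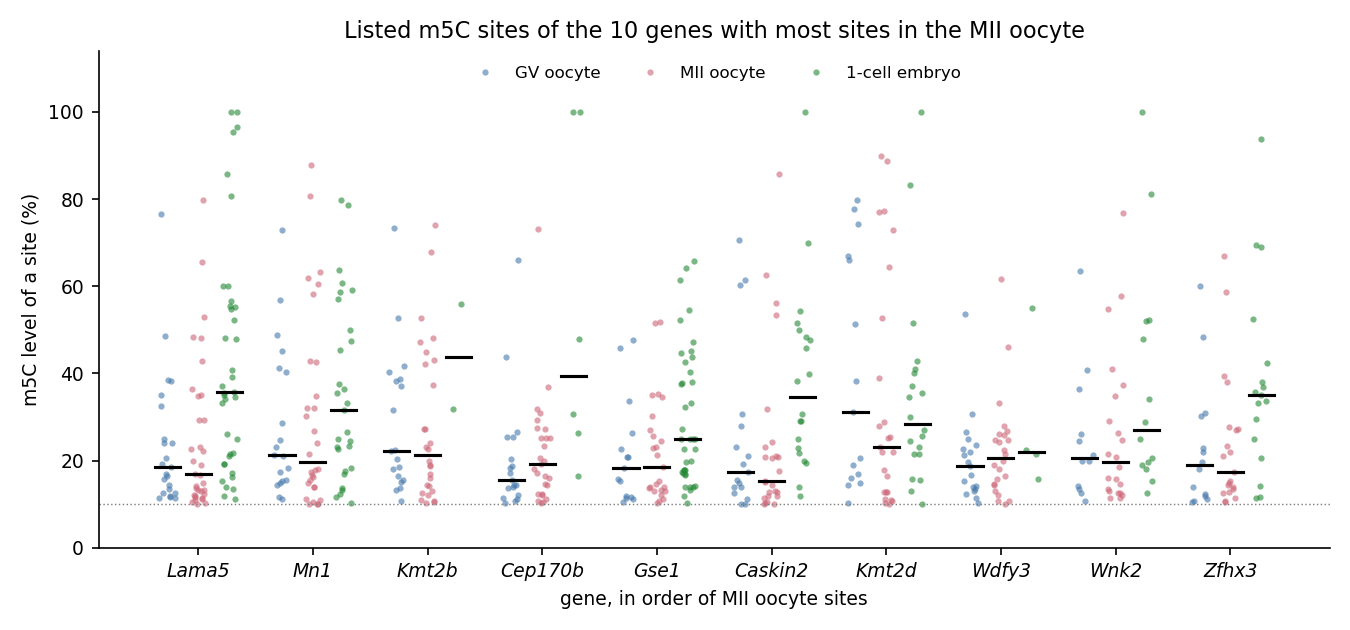
m5C level (%) of each listed site (points) of the 10 genes with most MII oocyte sites for GV (blue), MII (red) and 1-cell (green); black bars are medians and the dotted line is the lower limit of the lists. In each oocyte list most sites of a gene sit below 30% with a few far above, as in Lama5, where the MII levels run from 10.1% to 79.7%.

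Levels within a gene differed far more than read sampling alone gives. In the MII oocyte the standard deviation (SD) over the sites of a gene had a median of 16.7 percentage points over the 248 genes, while the SD expected from the reads alone had a median of 3.93 points. The SD was above the read SD in all 248 genes and above 2 times it in 228 (91.9%), against 79.9% of all listed genes with at least 5 sites. In the GV oocyte the median SD was 15.5 points over 243 genes (read SD 3.53), and in the 1-cell embryo 21.1 points over 194 genes (read SD 6.04). Over all genes with at least 5 sites the medians were 15.1, 15.3 and 18.4 points. Sites of a gene are not replicates, so these values describe how unequal they are.

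The usual pattern was a few strongly methylated sites among many weak ones. The highest MII site of a gene had a median of 64.1% and the lowest 10.5%, which is just above the limit of the lists. In the MII oocyte 185 genes (74.6%) had both a site of 50% or more and a site under 15%, against 50.6% of all genes with at least 5 sites. A gene with more sites has more room for both, and the set was chosen for its number of sites. The difference is therefore not read as a result. Only 1.96% of the variance of MII levels lay between the genes of the set, and 2.52% and 2.37% in the GV oocyte and the embryo.

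Myo19, a myosin that moves mitochondria, had the largest MII SD (35.7 points against a read SD of 3.04). Its 10 MII sites fell into a low and a high set. The sites at 634, 1279, 1322 and 2092 nt of the transcript had 68.5%, 80.4%, 89.1% and 85.6%, and the other 6 lay between 11.4% and 15.2%. The site at 2090 nt had 15.2% of 184 reads and its neighbour at 2092 nt 85.6% of 180 reads, and in the embryo these were at 12.9% and 100%. Trak1, an adaptor of mitochondrial transport, and Dnah11, a dynein heavy chain of cilia, followed with SDs of 31.6 and 30.3 points.

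At the narrow end, Prex1, an exchange factor for Rac, had 10 MII sites between 10.1% and 24.2% (SD 4.89 points, read SD 3.56). Med13l, a Mediator subunit, had an SD of 5.26 points against a read SD of 4.75, so nearly all of its spread was within what its reads give. Zswim8, a substrate receptor of a ubiquitin ligase, had an SD of 5.89 points. In the embryo the SDs of Prex1 and Zswim8 were 19.4 and 21.7 points. The highest median MII levels were those of Efnb2 (43.8%), Insm1, a zinc finger factor of neuroendocrine cells (42.9%), and Mtss1l, a membrane-bending protein (39.0%). Med13l and the transcription factor Rfx1 (12.6% each) and the tyrosine kinase Abl2 (12.8%) had the lowest. For Rfx1 the median GV level was 55.2% over 5 sites, and its MII list held 10.

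**Figure D2:**
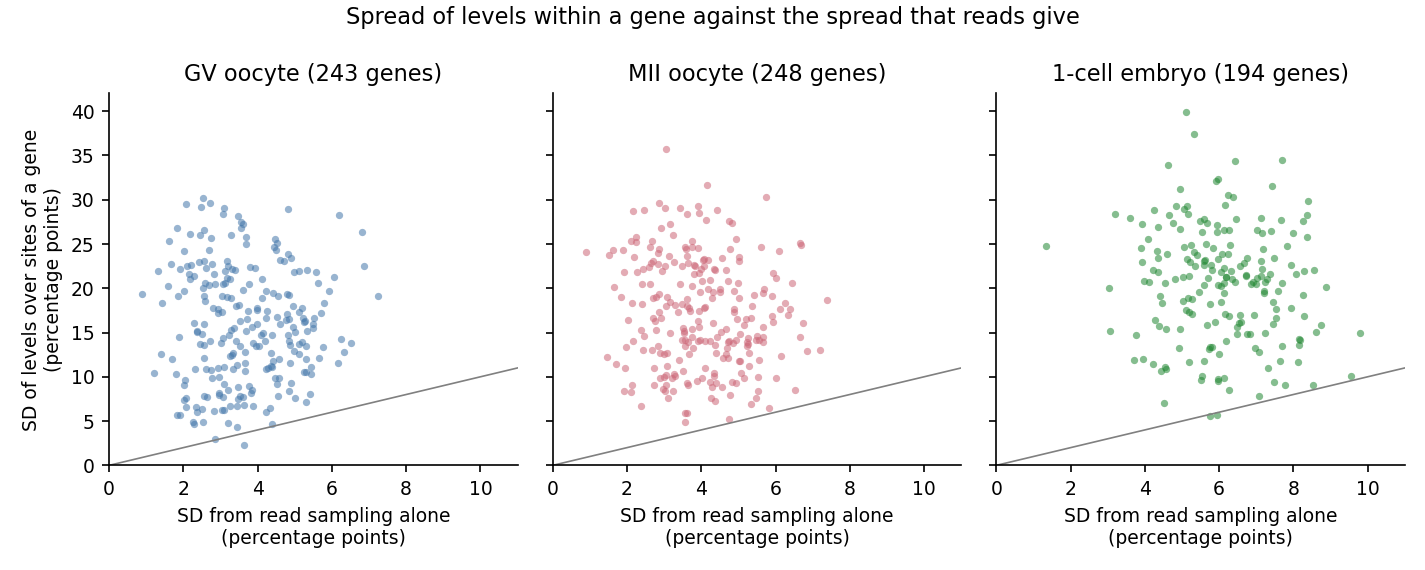
SD of m5C levels over the sites of a gene (percentage points) against the SD that read sampling alone gives, for each gene with at least 5 sites, in panels for GV (243 genes), MII (248) and 1-cell (194); the line marks equal values. Nearly all genes lie above the line, with a median SD of 16.7 against 3.93 points in the MII oocyte.

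The number of sites per gene differed between the lists, and more so in the embryo. In the GV oocyte each of the 248 genes had at least 3 sites (median 9, highest 23), and 226 had fewer than in the MII oocyte, 8 more and 14 the same number. In the 1-cell embryo the median was 10 sites with a range from 0 to 39, and 140 genes had fewer, 98 more and 10 the same number. Since the genes were chosen for a high MII number, a lower number in another list is not read as a loss. Genes chosen in the same way by 10 or more embryo sites had 2894, 3897 and 7048 sites at the GV, MII and 1-cell stage, and genes chosen by 10 or more GV sites had 1286, 1518 and 1180. At every stage 52 genes had 10 or more sites. Of the 107 genes with 10 or more GV sites 95 were members of the set, and of the 518 with 10 or more embryo sites 133 were.

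Of the 3135 MII sites, 2056 (65.6%) were also in the GV list, 1118 (35.7%) in the embryo list and 860 (27.4%) in both. Over all MII sites the shares were 62.6%, 38.7% and 29.7%. Of the 387 MII sites with a level of 50% or more, 51.4% were listed in the embryo, and of the 1605 with a level under 20%, 28.8% were (51.6% and 32.9% over all MII sites). The 1576 sites listed only in the embryo made up 58.0% of the set's embryo sites. Their median level was 19.6%, against 38.8% for embryo sites that an oocyte list also held. Over all embryo sites the share listed only there was 66.6%, with median levels of 19.35% and 39.1%. Embryo sites that an oocyte list also held were thus the more strongly methylated ones, in the set as in the whole series.

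**Figure D3:**
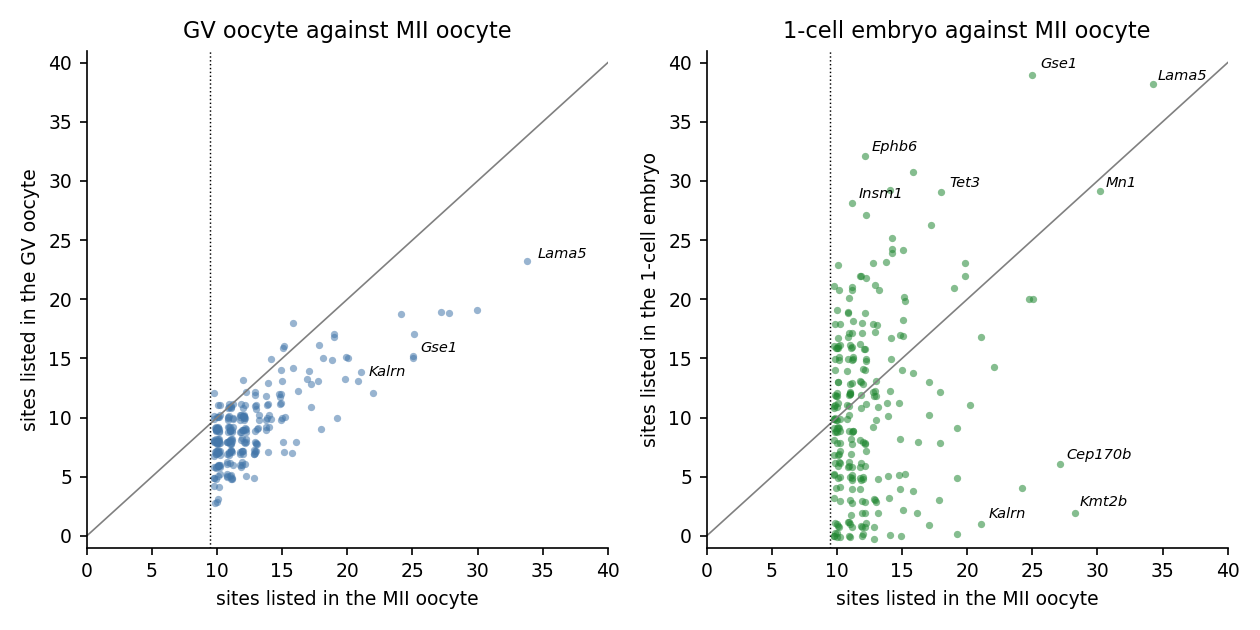
Number of listed sites per gene in the GV oocyte (left) and the 1-cell embryo (right) against the number in the MII oocyte, 1 point per gene of the set, shifted slightly so that points do not overlap; the solid line marks equal numbers and the dotted line the threshold of 10 MII sites. In the GV oocyte 226 of 248 genes lie below the line of equal numbers, and in the embryo the genes spread from 0 to 39 sites.

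Kmt2b had 19 GV sites, 28 MII sites and only 2 in the embryo, neither of which was among its oocyte sites. Cep170b had 19, 27 and 6, Wdfy3 19, 24 and 4, and Kalrn, a guanine nucleotide exchange factor of neurons, 13, 21 and 1. Dop1b, a protein of vesicle traffic, had 17 GV and 19 MII sites and none in the embryo. These were the 5 largest drops in number. Altogether 14 genes had no embryo site, among them the laminin γ1 chain gene Lamc1 (16 GV and 15 MII sites), and, named after their values were seen, the clock gene Per1, the imprinted cell cycle inhibitor Cdkn1c and the spectraplakin Macf1. The MII coverage of these 14 genes ran from a median of 36 to 237.5 reads per site, and a gene with no embryo row has no embryo coverage in the lists, so loss of the transcript and loss of the modification cannot be told apart.

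Other genes had more sites in the embryo. Ephb6, a receptor of the ephrin family without kinase activity, had 9, 12 and 32 sites, Insm1 10, 11 and 28, and Pdzd2, a PDZ domain protein, 7, 16 and 31. Sec16a, a scaffold of endoplasmic reticulum exit sites, had 10, 12 and 27, and Socs7, a suppressor of cytokine signalling, 11, 14 and 29. Gse1 had the most embryo sites of the set, with 15, 25 and 39. Lama5 and Mn1 stayed high at every stage, with 23, 34 and 38 sites and 19, 30 and 29.

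Coverage was lower in the embryo for genes of either kind. At the sites shared by the MII oocyte and the embryo, the embryo coverage was a median of 0.253 of the MII coverage over 217 genes. It was 0.252 in genes with fewer embryo sites (176 MII reads and 37 embryo reads per shared site) and 0.246 in genes with more (278.8 and 63.5 reads). The ratio of coverage and the ratio of site number had a Spearman correlation of 0.012 across the 217 genes, which are not independent replicates. At the shared sites, genes with more embryo sites were thus the more deeply covered ones in both lists, and the ratio of coverage was alike. A shared site needs at least 20 embryo reads, so stronger drops in coverage cannot appear in this ratio. Of the 140 genes with fewer embryo sites only 109 had a shared site, and Kmt2b was among those with none. The ratio therefore cannot tell whether coverage fell alike in the genes of both kinds. The part of depth in the loss of sites was not tested.

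By group, 7 of 12 matrix and adhesion genes had fewer embryo than MII sites and 3 had more, and in the cytoskeleton group 16 of 21 had fewer and 5 more. Among chromatin genes 16 had fewer and 13 more, and among GTPase regulators 13 and 13. Of the 8 transporters and channels 6 had more and 2 fewer, and of the 10 ubiquitin genes 2 had more and 8 fewer. Scn10a, a voltage-gated sodium channel, had 7, 15 and 8 sites, and Ttyh3, a membrane protein of the tweety family, 15, 14 and 24. Hectd4 and Herc2, large HECT-domain ubiquitin ligase genes, had 15, 18 and 3 and 8, 16 and 14. In the RNA group, Ints1, a subunit of the Integrator complex, had 15, 20 and 11 sites, and Edc4, a scaffold of mRNA decapping, 11, 15 and 20. Fance, of the Fanconi anaemia pathway, had 5, 11 and 5, and Tert, the telomerase reverse transcriptase, 9, 11 and 5.

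**Figure D4:**
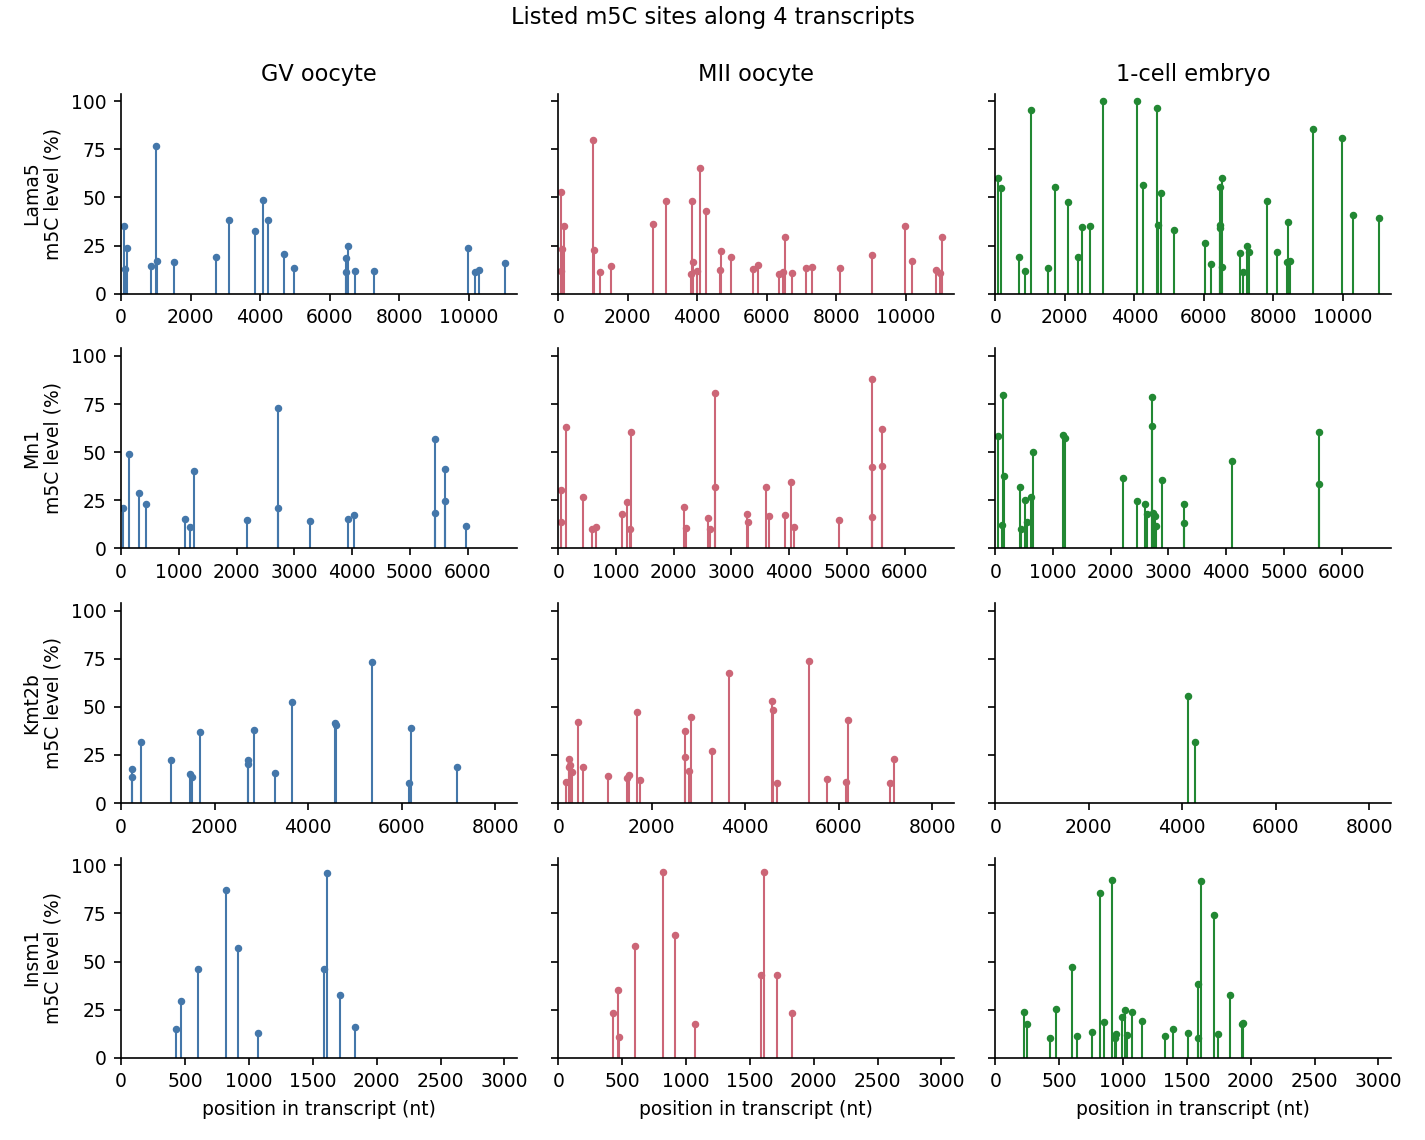
m5C level (%) of each listed site against its position in the transcript (nt) for Lama5, Mn1, Kmt2b and Insm1 (rows) at the GV, MII and 1-cell stage (columns); sites outside the representative transcript are not drawn. The tall sites stand at the same positions in both oocyte lists, Kmt2b has 2 sites in the embryo, and the 28 embryo sites of Insm1 include many low ones.

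The median level of the set's sites was 19.2% at the GV stage (quartiles 13.5 and 31.8%), 19.4% at MII (13.2 and 32.4%) and 25.6% at the 1-cell stage (16.5 and 42.1%). Over all listed sites the medians were 19.5%, 19.8% and 23.8%. Low coverage lifts the lowest level that can be listed, and at sites of 50 or more reads the medians were 18.6%, 18.8% and 19.5%, so that the embryo median was within 1 percentage point of the MII median there. Sites of 50% or more numbered 263 (11.5%), 387 (12.3%) and 504 (18.6%), and the 70 fully unconverted sites were all in the embryo.

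Levels were also followed at the same site, where the limits of each list still apply. At the 860 sites listed at every stage, in 204 genes, the median level was 22.0% at GV, 28.2% at MII and 44.8% at the 1-cell stage, with a median coverage of 284.5, 243.5 and 58.5 reads. Over all 6145 such sites of the series the medians were 21.6%, 28.1% and 45.5%. The level was numerically higher at both steps at 585 of the 860 sites (68.0%, and 67.4% of all such sites) and lower at both steps at 13. Sites listed at every stage are the well covered and more methylated ones and do not stand for the whole lists.

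The comparison of the GV oocyte with the 1-cell embryo does not use the list that chose the genes. Of 883 shared sites, 542 (61.4%) were higher in the embryo and 4 lower by Fisher's exact test with Benjamini-Hochberg adjustment over all 6478 sites shared by these lists, and over all of those sites the calls came to 66.1% higher and 1.05% lower. The median change was 18.6 percentage points, against 19.2 over all shared sites. It was smaller where coverage was higher, at 14.9 points (16.3 over all) with 50 or more reads in both lists and 13.1 points (14.8 over all) with 100 or more, and the part of the higher limit at low coverage was not tested. Over whole genes, with the shared sites as strata of a Cochran-Mantel-Haenszel chi-square test, 188 of 205 genes (91.7%) were higher in the embryo and 1 was lower, beside 78.6% higher and 0.82% lower among all 3413 genes tested. The set had a median of 4 shared sites per gene and all tested genes 1. Among genes with 5 or more shared sites 85 of 86 genes of the set were higher (98.8%), against 97.9% of all such genes. The median odds ratio of such genes was 2.57 in the set and 2.52 in the whole series. Over all tested genes, whatever their number of shared sites, it was 2.86 in the set and 2.89 in the whole series. The change of the set was therefore close in size to that of the whole series. Sites within the length of a read share reads, so the p-values of whole genes are too small.

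Lama5 shared 16 sites between these lists, whose median went from 19.9% to 55% (odds ratio 4.05, 95% interval 3.30 to 4.95, Cochran-Mantel-Haenszel chi-square test with Benjamini-Hochberg adjustment, adjusted p = 1.01e-43), and 15 of the 16 were higher. Its sites at 1026 and 4078 nt of the transcript went from 17.0% and 48.7% to 95.5% and 100%, at 22 and 29 embryo reads. The plot of sites along the Lama5 transcript shows these as the tall embryo sites. Tet3 was covered far more deeply, by a median of 1352 GV, 1169.5 MII and 188 embryo reads, and rose from 24.3% to 50.1% over 14 shared sites, all of them higher (odds ratio 2.52, interval 2.28 to 2.78, adjusted p = 8.10e-77 in the same chi-square test). The adjacent coding sites of Tet3 at 5172 and 5173 nt had 89.4%, 91.9% and 94.3% and 51.1%, 61.5% and 77.5% at the GV, MII and 1-cell stage, so the neighbours had unlike levels at every stage and both were higher in the embryo. Other Tet3 sites had like levels at every stage, with 10.7%, 11.3% and 11.3% at 348 nt in the 5′ UTR and 12.1%, 14.5% and 12.2% at 3576 nt.

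The other genes with most sites were higher as well. Gse1 went from 17.0% to 37.9% over 10 shared sites (odds ratio 2.71, 2.33 to 3.16), Mn1 from 24.6% to 58.6% over 9 (2.57, 2.03 to 3.26) and Caskin2 from 13.9% to 30.8% over 9 (3.47, 2.67 to 4.52). Zfhx3 had the largest ratio among them with at least 4 shared sites (8.23, 5.49 to 12.3), from 22.1% to 69.2%. Kmt2d, with 2 shared sites, had an odds ratio of 9.85 (4.99 to 19.4). Arfgef2 and Bcr, exchange factors for small GTPases, had ratios of 6.20 (4.35 to 8.84) and 5.18 (3.60 to 7.45), and Zswim8 one of 4.76 (3.62 to 6.25). Each of these genes passed the test of its own shared sites. Arfgef2, Bcr and Zswim8 were named for the largest median changes from the MII oocyte to the embryo. Those changes use the same embryo levels, so the ratios of these genes are descriptions and not separate outcomes.

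By group, the counts lay near the 91.7% of the set and the 78.6% of all genes that were called higher, and nothing particular to a group is read from them. Every tested gene was higher in the embryo among matrix and adhesion genes (7 of 7), zinc finger genes (6 of 6), transporters (6 of 6), RNA-binding genes (11 of 11) and DNA repair genes (5 of 5). The counts were 24 of 25 for chromatin genes, 20 of 23 for GTPase regulators, 14 of 17 for cytoskeleton genes, 8 of 9 for vesicle traffic genes, 5 of 6 for ubiquitin genes, 12 of 13 for kinases and receptors and 69 of 76 for genes of no group. The odds ratio was 3.65 (3.03 to 4.40) for Ttyh3, 2.64 (2.15 to 3.24) for Edc4, 4.82 (3.11 to 7.49) for Herc2 and 10.1 (6.39 to 15.9) for Iqgap3, a scaffold of Rac and Cdc42.

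A few genes were not called higher over their shared sites, or less so. Jup and Insm1 were named for the smallest median changes from the MII oocyte to the embryo. Those changes use the same embryo levels, so the values of both genes are descriptions. Jup, the junction protein plakoglobin, had a median of 27.7% in both the GV oocyte and the embryo over 6 shared sites (odds ratio 0.948, interval 0.711 to 1.27, adjusted p = 0.744 in the Cochran-Mantel-Haenszel chi-square test), and the interval ends below the 2.86 that was the median of the set. Of those 6 sites, 1 was called higher, at 1644 nt (15.9% to 42.4%), and of the other 5 only the one at 1388 nt was numerically higher (15.6% and 16.7%). In Insm1 the medians over 9 shared sites were 45.9% and 47.1% (odds ratio 1.53, interval 1.27 to 1.84), and its sites differed. The Type II site at 914 nt had 57.3%, 63.7% and 92.6% at the 3 stages and the site at 1716 nt 32.8%, 43.3% and 74.3%. The sites at 819 and 1613 nt had high levels at every stage and were numerically lower in the embryo than at MII (86.9%, 96.3% and 85.4%, and 96.0%, 96.7% and 92.0%). From the MII oocyte to the embryo 2 Insm1 sites were called higher and 2 lower. Ptpn11 had an odds ratio of 1.82 (1.40 to 2.36). Mtor, the growth-regulating kinase and the only gene called lower, rested on 1 shared site, which went from 60.8% to 33.3% (odds ratio 0.322, interval 0.139 to 0.748); it was named after its values were seen.

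**Figure D5:**
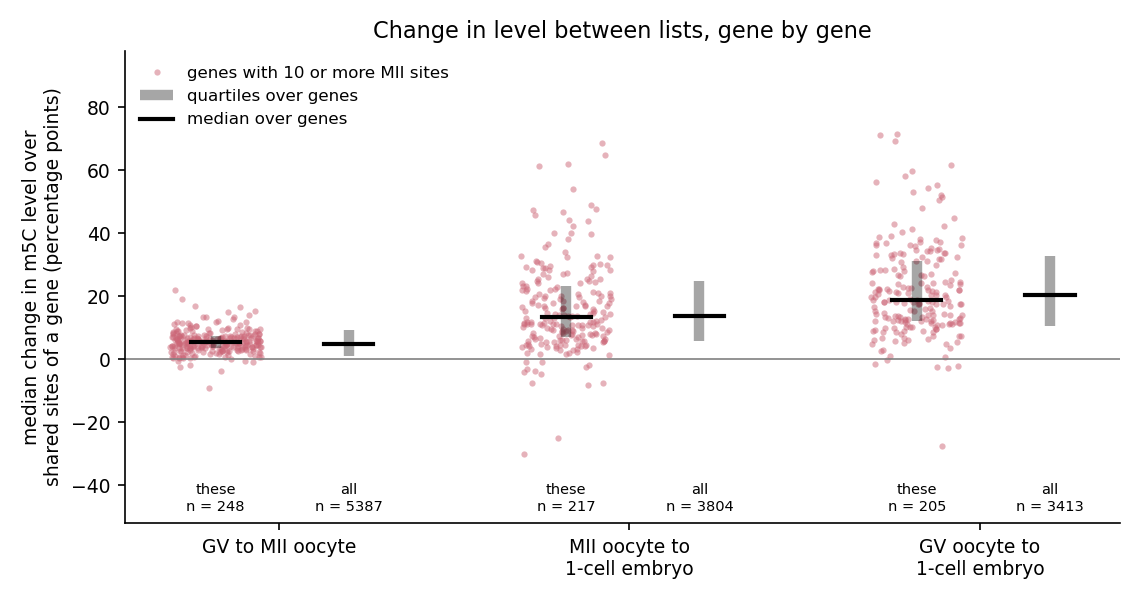
Median change in m5C level over the shared sites of a gene (percentage points) for each pair of lists; red points are genes of the set, black lines medians and grey bars quartiles over genes, drawn for the set ("these") and for all genes with a shared site ("all"). The set and all genes have similar medians in each pair. From GV to MII the quartiles lie closer together in the set (3.59 and 7.48 points) than over all genes (1.12 and 9.38 points). From the GV oocyte to the embryo 188 of 205 genes of the set were called higher.

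The pairs that include the MII list, which chose the genes, are given as counts only. Between the GV and MII oocyte, 425 of 2056 shared sites (20.7%) were called higher and 6 lower, beside 19.6% and 0.965% of all shared sites, and 180 of 248 genes (72.6%) were called higher and 2 lower, beside 35% and 1.8% of all genes. Between the MII oocyte and the embryo, 532 of 1118 sites (47.6%) were called higher and 26 lower, beside 51.3% and 2.45%, and 185 of 217 genes (85.3%) were called higher and 3 lower, beside 66% and 1.74%. The set had a median of 8 and 5 shared sites per gene in these pairs and all genes 2 and 1, and the shares of genes are not comparable without regard to this. Among genes with 5 or more shared sites the shares called higher were 73.5% in the set and 65.4% in all genes from GV to MII, and 93.0% and 91.5% from MII to the embryo. Median changes per site were 5.49 and 11.7 percentage points in the set and 4.87 and 12.7 points over all shared sites, and at 100 or more reads in both lists they were 5.54 and 7.64 points in the set and 5.19 and 8.87 points over all.

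The measured order of sites within a gene was largely kept between the oocyte lists and less so between either of them and the embryo. Coverage differed between these pairs. The median over the set's shared sites was 177 (GV) and 147 (MII) reads between the oocyte lists. In the embryo it was 59 reads in the pair with MII and 57 in the pair with GV. The pairs also rest on different genes, and the part of read depth in the order was not tested. The median Spearman correlation over the shared sites of a gene was 0.847 between the GV and MII oocyte, 0.714 between the MII oocyte and the embryo and 0.70 between the GV oocyte and the embryo, in genes with at least 5 shared sites. Over all genes of the series with at least 5 shared sites the correlations were 0.857, 0.721 and 0.70. The site with the highest level was the same in 171 of 238 genes of the set (71.9%), 62 of 115 (53.9%) and 46 of 86 (53.5%). Over all such genes of the series the shares were 75.4%, 63.0% and 64.1%. These shares take no account of the number of shared sites per gene. In the set the change itself was uneven, with a median SD over the shared sites of a gene of 6.66, 14.6 and 15 points. Read sampling gives 5.23, 6.50 and 6.20 points there. The SD of the change was above that of reads in 182 of 238 genes between the oocyte lists. It was above in 113 of 115 between the MII oocyte and the embryo and in 84 of 86 between the GV oocyte and the embryo. Over all such genes of the series this held in 471 of 654, 311 of 319 and 189 of 192.

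Single sites show the extent of the movement. The sites with the largest called rise and the largest called fall from the MII oocyte to the embryo, among those with 100 or more reads in both lists, are printed here with the site in capitals, and the Type II site of Tbc1d1 is shown for its CUCNA sequence. No p is given, since the MII list chose these genes.
Zfp541: gccaucaccuCgagggaagca
Hip1r: gucucaggagCaggggcuucg
Tbc1d1: ggagagcuccCuccacgcucc
The site of Zfp541, a zinc finger protein of germ cells, lay at position 16082191 of chromosome 7 (plus strand, coding sequence of exon 7) and had 27.9% of 276 reads in the GV oocyte, 31.0% of 252 in the MII oocyte and 74.4% of 172 in the embryo. This rise, of 43.5 points, was the largest among these sites. The site of Hip1r at position 123998798 of chromosome 5 (plus strand) had 27.9%, 35.1% and then 19.6% of 112 reads, while the site 6 nt before it had 80.3%, 86.6% and 91.2%. Tbc1d1, a GTPase-activating protein for Rab proteins, had its site at position 64311083 of chromosome 5 (plus strand), with 51.3%, 57.2% and 42.3%. Of 35 Type II sites of the set that were shared by the GV oocyte and the embryo, 16 were called higher and 2 lower, with a median change of 15.2 points, and of all 353 shared Type II sites 172 were called higher and 9 lower, with a median change of 11.5 points.

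The unconverted background of a gene is the rate against which its sites were tested, and it was recovered here from the p-values of the lists. Its median was higher in the set than over all genes, at 0.329%, 0.469% and 0.565% at the GV, MII and 1-cell stage against 0.264%, 0.367% and 0.354%. It was far below the 10% limit of the lists at each stage. Its part in the number of sites was not tested.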

How the data were processed

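RNA bisulfite sequencing of mouse GV oocytes, MII oocytes and 1-cell embryos was analysed from the site lists that the authors deposited, with 1 library per stage. As the submitters' processing notes state, reads were handled by the authors with bcl2fastq (2.17), cutadapt (1.13), Trimmomatic (0.36), HISAT2 (2.10), Bowtie2 (2.2.9) and SAMtools, and the methods name the build GRCm38. The study itself names other versions of cutadapt and HISAT2. Per site, the authors deposited the coverage as a count of C and T reads, the m5C level as a fraction of unconverted reads, given here in percent, and the p-value of a binomial test (one-sided) of these reads against the background rate of the gene. That p-value was used only to recover the background, for p-values above the limit of 1e-300. The lists hold called sites only.

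Genes were taken by their Ensembl ID if the MII list held 10 or more of their sites. Regions, transcript positions and sequences were taken from GRCm38 with the GENCODE annotation, and the representative transcript is the one with the longest coding sequence. Shared sites were compared with Fisher's exact test and genes with the Cochran-Mantel-Haenszel chi-square test, both two-sided, adjusted by Benjamini-Hochberg over all shared sites or genes (threshold 0.05). Scripts were tested on simulated data. Intervals are 95% Wilson intervals for levels and shares. Sites are covered by a median of 55 to 161 reads, and with 1 library per stage nothing measures the spread between samples. RNA was folded at 37 degrees with ViennaRNA (2.7.2). Tests ran in scipy (1.17.1) under Python (3.11.15), with tables in pandas (2.3.3) and numpy (2.4.6) and plots in matplotlib (3.10.9).

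The genes, gene groups and tests were chosen with earlier results of these data known. Genes were named by rule among the 248: the 10 with most MII sites, the 3 highest and 3 lowest in median MII level and in MII SD, the 5 with the largest drop and the 5 with the largest gain in sites from the MII oocyte to the embryo, the 3 largest and 3 smallest median changes over 5 or more shared sites, and up to 2 of each group with most MII sites. The 10 highest sites and the 3 largest rises and falls of each step at 100 or more reads were the named sites, of which a part is printed. Alternatives were a level of at least 20%, a coverage of at least 50 reads, thinning of each site to 20 reads with 3 unconverted reads required, division of reads by 5, 8 or 15 sites as the minimum, and genes chosen by another list.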

Additional observations from a re-analysis of the deposited data

How the results depend on the processing

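No paired analysis was possible because each stage has 1 library. The number of genes with 10 or more MII sites was 162 at a coverage of at least 50 reads, 23 at a level of at least 20% and 92 after thinning each site to 20 reads, against 248, and 482 or 45 genes had at least 8 or 15 sites.

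With a coverage of at least 50 reads the set had 1546 embryo sites, coding shares of 76.9%, 77.3% and 81.5%, median levels of 18.8% (MII) and 19.5% (embryo) and an embryo SD of 18.8 points. From the GV oocyte to the embryo 318 of 510 sites (62.4%, all genes 69.3%) and 118 of 139 genes (84.9%, all 78.7%) were higher and 0 genes lower, and from the MII oocyte to the embryo 305 of 657 sites (46.4%, all 52.5%) and 119 of 153 genes (77.8%, all 65.9%) were higher, so fewer sites and genes could be tested. With a level of at least 20% the sites numbered 1084, 1530 and 1751, the median levels were 32.8%, 33.3% and 35.7%, the GV coding share was 73.1%, the Type II shares 6.83% (GV) and 5.82% (MII) and the GV SD 17.1 points. Higher sites then numbered 262 of 986, 301 of 619 and 286 of 458 (GV to MII, MII to embryo, GV to embryo; 26.6%, 48.6% and 62.5%, and 24.3%, 53.2% and 67.6% over all genes), with 15 sites lower from the MII oocyte to the embryo and 1 gene lower from GV to MII.

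Thinning gave median levels of 25%, 25% and 30%. It left 0 of 1402 higher sites from GV to MII (0% over all genes). From MII to the embryo it left 65 of 821 (7.92%, all genes 9.43%) and from GV to the embryo 107 of 651 (16.4%, all genes 17.2%). Higher genes numbered 3 of 248, 78 of 207 and 100 of 197 in these pairs (1.21%, 37.7% and 50.8%). Over all genes the shares were 0.11%, 24.1% and 34.15%. There were 0 lower sites or genes of the set in each pair. Dividing reads by 5, for reads that are PCR copies, left 4, 49 and 146 higher sites (0.195%, 4.38% and 16.5%, and 0.672%, 7.20% and 21% over all genes). In the pairs with the MII list it left 37 of 248 and 80 of 217 higher genes (14.9% and 36.9%, and 4.18% and 23.2% over all genes). There were 0 lower sites or genes of the set in each pair. These shares of genes, too, are not comparable without regard to the number of shared sites per gene. Both leave fewer reads per site by construction. Genes chosen by 10 or more GV sites had a median MII level of 21%, and genes chosen by 10 or more embryo sites a median embryo level of 21.7%. The other 38 of 98 values stayed within their limits (within 1.5 times for counts). With 1 library per stage, depth and the lower limits of the lists decide which sites can be seen, and no spread between samples is known.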
